A study of Mus musculus with 12 samples.

Results

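The genes described here are the mouse chemokine ligands and receptors, taken as every gene whose symbol in the array annotation is Ccl, Cxcl, Ccr or Cxcr with a number, together with Cx3cl1 and Cx3cr1. The rule found 50 of the 19938 genes measured, 33 ligands and 17 receptors, each read from 1 probe set, the one with the highest mean where a gene had several. Another 7 chemokine probe sets carry several symbols and were not assigned to a gene. The measurements are log2 array signals, in which a difference of 1 is a 2-fold difference. A gene was tested if its signal was above the array median (6.31) on at least 1 array, which 22 of the 50 chemokine genes were, 18 ligands and 4 receptors. A gene that passed because it was bright in a single state had to differ between states, so the counts below describe these 22 genes and not the family.

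Chemokines are small secreted proteins that draw cells along a concentration gradient, and they act through receptors of the G protein-coupled class. The CC and CXC families are named after the spacing of their first cysteines, and the single CX3C ligand is made as a membrane-bound stalk that can be shed. Fibroblasts are known as producers of chemokines that attract monocytes, macrophages and neutrophils, while the Cxcl12 and Cxcr4 pair guides stem and germ cells in the embryo.

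RNA was measured on 12 arrays, 1 for each combination of genotype and stage. Mouse embryonic fibroblasts (MEF) gave 3 arrays, from Mbd3+/+ (WT), Mbd3flox/- (flox/-) and Mbd3-/- (-/-) cells. MEF given doxycycline (DOX), the inducer of an OSKM transgene (the factors Oct4, Sox2 and Klf4 with Myc), gave 5 arrays: WT cells at days 4, 8 and 11 and flox/- cells at days 4 and 8. Pluripotent lines gave 4 arrays: induced pluripotent stem cells (iPSC) of WT and flox/- genotype and embryonic stem cells (ESC) of WT (V6.5) and -/- genotype. WT and flox/- MEF, DOX-treated cells and iPSC are labelled as carrying the DOX-inducible OSKM transgene, and no transgene is labelled for the -/- MEF or the ESC lines. The flox allele is an Mbd3 copy that can be deleted and the other copy of flox/- cells is already deleted. The growth conditions in the labels are pluripotency medium with 2i and LIF on irradiated DR4 MEF feeder cells, and they are given for every sample, MEF included, so feeder RNA can be in any of them. A pair of arrays, WT day 8 and WT ESC, was reused from an earlier series, and the day of the WT day 8 array is given as 8 in its title and as 4 in its source name. It was taken as day 8. No label says that arrays of a state came from separate cultures, and they differ in genotype and day, so the p-values measure the spread among those arrays only.

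Mbd3 itself read between 8.73 and 9.67 on the 10 WT and flox/- arrays, 8.15 in -/- MEF and 6.73 in -/- ESC. Whether its probe set lies within the deleted part is not stated. The mean of 13 fibroblast markers was 11.37 to 11.65 on the MEF arrays, 6.18 to 10.70 under DOX and 6.33 to 9.03 in the pluripotent lines, and the mean of 8 pluripotency markers was 4.95 to 5.16, 6.40 to 11.94 and 11.75 to 11.95. The WT day 8 array stood apart among the later DOX arrays, with a pluripotency mean of 6.40 against 11.07 at WT day 11 and 11.94 at flox/- day 8. Blood cell markers were also found in the fibroblast samples, unevenly, as the mean of 21 such markers was 8.29 in WT MEF, 7.70 in flox/- MEF and 6.25 in -/- MEF.

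Promoter sequences are shown for 5 genes that the results turn on: the ligands with the clearest difference between MEF and the other states (Cxcl12 and Cx3cl1), one ligand of each set that differed among the MEF arrays (Ccl9 and Cxcl1), and the receptor with the larger rise in pluripotent lines (Ccr4). Each is the 250 bases before the transcription start, 5′ to 3′ on the strand of the gene, from the RefSeq promoter table (GRCm38.p6). They lie at chr6:117168285-117168534 (plus strand), chr8:94771930-94772179 (plus), chr11:83578637-83578886 (minus), chr5:90890995-90891244 (plus) and chr9:114496545-114496794 (minus). Capitals mark matches, on either strand, to the GC box motif GGGCGG, the core promoter motif TATAAA, the kappa-B motif GGGNNNTTCC and the AP-1 motif TGANTCA.
Cxcl12: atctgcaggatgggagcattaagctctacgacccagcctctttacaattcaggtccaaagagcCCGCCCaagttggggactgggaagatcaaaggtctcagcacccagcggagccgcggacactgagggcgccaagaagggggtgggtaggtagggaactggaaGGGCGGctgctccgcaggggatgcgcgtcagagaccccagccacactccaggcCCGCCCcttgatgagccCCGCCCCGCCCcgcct
Cx3cl1: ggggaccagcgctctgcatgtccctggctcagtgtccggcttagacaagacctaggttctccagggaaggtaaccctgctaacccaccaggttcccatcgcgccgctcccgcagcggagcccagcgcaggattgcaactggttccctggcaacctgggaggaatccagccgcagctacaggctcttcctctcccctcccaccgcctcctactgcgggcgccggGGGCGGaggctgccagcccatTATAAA
Ccl9: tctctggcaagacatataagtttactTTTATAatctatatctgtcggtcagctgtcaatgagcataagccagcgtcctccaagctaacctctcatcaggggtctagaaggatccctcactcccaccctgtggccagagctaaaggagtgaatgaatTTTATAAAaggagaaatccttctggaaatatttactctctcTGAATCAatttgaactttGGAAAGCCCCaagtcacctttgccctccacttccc
Cxcl1: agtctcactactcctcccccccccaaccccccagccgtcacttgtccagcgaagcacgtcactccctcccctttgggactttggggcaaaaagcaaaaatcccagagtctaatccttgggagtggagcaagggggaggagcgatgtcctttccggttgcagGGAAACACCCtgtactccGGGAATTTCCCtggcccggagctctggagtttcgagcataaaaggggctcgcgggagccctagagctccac
Ccr4: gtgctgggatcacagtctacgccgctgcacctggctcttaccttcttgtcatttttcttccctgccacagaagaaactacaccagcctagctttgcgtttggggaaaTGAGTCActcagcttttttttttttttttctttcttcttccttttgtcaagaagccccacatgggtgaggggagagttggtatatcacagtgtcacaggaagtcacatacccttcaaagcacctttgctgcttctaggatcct
The Cxcl12 and Cx3cl1 sequences were rich in G and C (64.4% and 64.8%, with 14 CpG each), against medians of 52.4% and 6 CpG over 32851 promoters. Ccl9 (43.6%, 2 CpG) and Ccr4 (46.4%, 3 CpG) were below those medians, and Cxcl1 (59.2%, 10 CpG) was above them. Cxcl12 held 5 GC-box matches, of which the last 2 overlap by a base. In Cx3cl1 the TATAAA ends at the base before the listed start. Cxcl1 held 3 kappa-B matches, 2 of which overlap on opposite strands, and Ccl9 held 1 kappa-B, 1 AP-1 and 3 TATAAA matches, of which 2 overlap. The table holds 36 of the 50 chemokine genes and 16 of the 22 tested ones. Of these 16, GGGCGG was found in 3 (32.7% of all promoters hold it), TATAAA in 6 (12.4%), GGGNNNTTCC in 3, Ccl9, Ccl20 and Cxcl1 (4.65%), and TGANTCA in 2, Ccl9 and Ccr4 (6.75%). A match is a run of letters and says nothing of binding in these cells.

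Most of the tested chemokine genes were lower in the pluripotent lines than in fibroblasts. Of those above the array median on all 3 MEF arrays, Ccl2, Ccl7, Ccl25, Cx3cl1, Cxcl12, Cxcl14 and Cxcl16 had a pluripotent mean above it too, and Ccl3, Ccl5, Ccl9 and Cx3cr1 did not. Between the 4 pluripotent and the 3 MEF arrays, limma called 16 of the 22 tested genes at an adjusted p under 0.05, 14 lower and 2 higher in pluripotent cells. The background is high here: 60.0% of all 13044 genes tested were called, 30.1% higher and 29.9% lower. The median log2 difference was -1.27 over the chemokine genes and 0.03 over all genes. The values of the groups did not overlap for 13 of the 22 genes, against 63.2% of all genes. Ccl12, Ccl20, Ccr1, Cxcl1 and Cxcl15 passed the filter only through MEF arrays, Ccr4 only through ESC arrays and Cxcr4 only through DOX arrays. For all of these but Cxcr4 the filter favoured a difference between pluripotent lines and MEF. Between the 5 DOX arrays and the same 3 MEF arrays, 3 of the 22 were called, all lower under DOX, a share at the background (13.6% either way, 7.67% lower), with a median of -0.996 against 0.06, and the groups were apart for 5 of 22, against 30.6% of all genes. Leaving out the flox/- MEF array brought these counts from 16 to 8 and from 3 to 0, while the calls over all genes went from 7827 to 6449 and from 1768 to 150. Leaving out WT day 4 brought the DOX count to 6, with 2410 calls over all genes. Both comparisons use the same MEF arrays, so their differences are not independent of each other. In bulk RNA, fewer cells of a type and less RNA per cell cannot be told apart. Cell type markers moved as well: all 13 fibroblast markers fell in pluripotent lines and 3 under DOX, and of 16 tested blood cell markers 12 fell and 2 rose in pluripotent lines and 1 fell under DOX. The summed linear signal of the 21 measured blood cell markers was 2775 to 21297 in MEF, 2356 to 10808 under DOX and 5007 to 7245 in pluripotent lines, with 4 to 8 of them at or below the lower quartile of an array, and the sum in pluripotent lines includes Laptm5 (10.84 to 12.04), Kit (9.59 to 10.98) and Cd68 (9.09 to 10.62). The part of these cells in the chemokine differences was not tested.

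**Figure D1:**
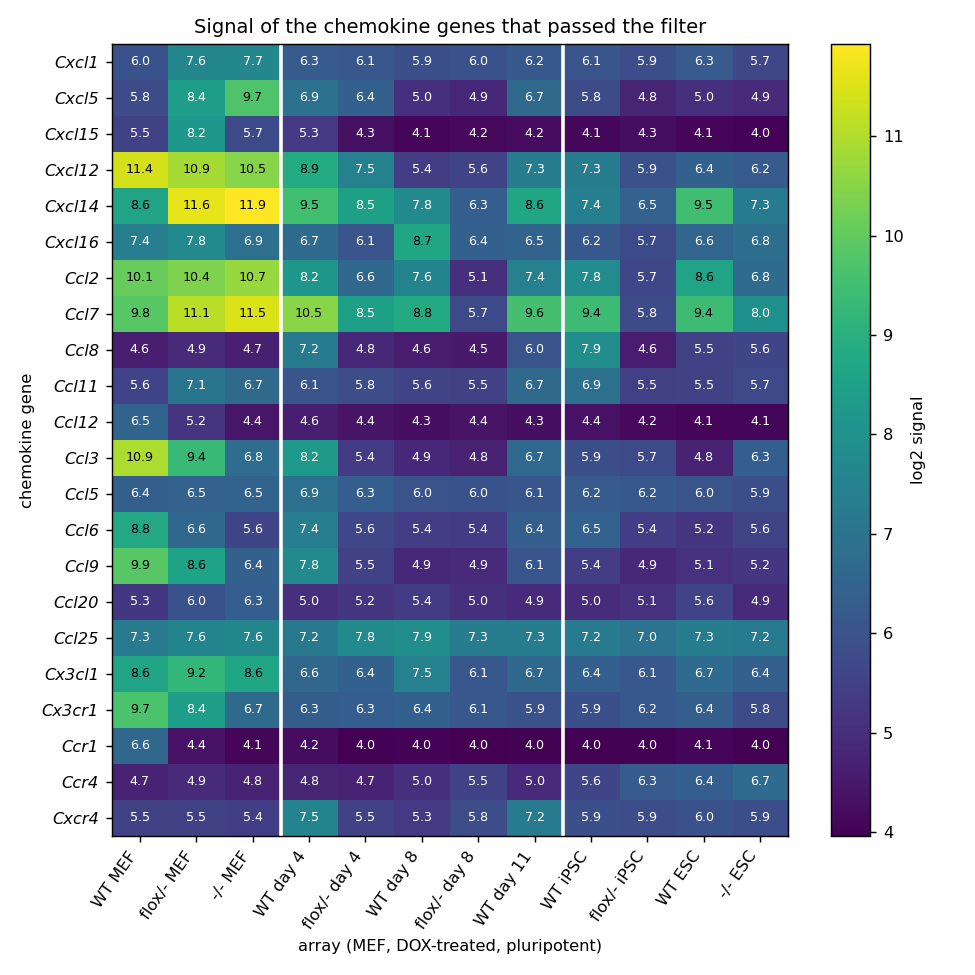
Log2 signal of the 22 tested chemokine genes (rows) on the 12 arrays (columns), with white lines between the MEF, DOX-treated and pluripotent arrays and the value printed in each cell to 1 decimal. Bright cells gather in the 3 MEF columns, where Cxcl12, Ccl2, Ccl7, Cxcl14 and Cx3cl1 are high on all 3 arrays, and Ccl3, Ccl6, Ccl9 and Cx3cr1 are highest in WT MEF.

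Cxcl12, the ligand of Cxcr4 and a homeostatic chemokine of stromal cells, had the largest difference among the chemokine genes. Cxcl12 measured 11.41 in WT MEF, 10.85 in flox/- MEF and 10.47 in -/- MEF. Under DOX, Cxcl12 measured 8.86 at day 4, 5.42 at day 8 and 7.32 at day 11 in WT cells, and 7.48 at day 4 and 5.58 at day 8 in flox/- cells. Its pluripotent values were 7.31 in WT iPSC, 5.95 in flox/- iPSC, 6.45 in WT ESC and 6.23 in -/- ESC. Every MEF value was above every other value, and both day 8 arrays were below the pluripotent range. Cxcl12 fell 21.5-fold (log2 difference -4.42 ± 0.35 SE, adjusted p = 6.68e-05) from MEF to pluripotent and 15.7-fold (log2 difference -3.98 ± 0.77 SE, adjusted p = 0.0206) from MEF to DOX. Without any one of the 3 MEF arrays, or with genotype as a block, the DOX call was lost, and its adjusted p ranged from 0.00330 to 0.0934 over 17 settings.

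Cx3cl1, the membrane-tethered ligand also called fractalkine, measured 8.60 in WT MEF, 9.23 in flox/- MEF and 8.64 in -/- MEF. Under DOX, Cx3cl1 measured 6.59 at day 4, 7.46 at day 8 and 6.66 at day 11 in WT cells, and 6.42 at day 4 and 6.12 at day 8 in flox/- cells. In the pluripotent lines it was 6.42 in WT iPSC, 6.14 in flox/- iPSC, 6.73 in WT ESC and 6.40 in -/- ESC. The MEF arrays lay above all 9 others, and among those WT day 8 was the highest. The fall was 5.28-fold (log2 difference -2.40 ± 0.20 SE, adjusted p = 8.47e-05) in pluripotent lines and 4.51-fold (log2 difference -2.17 ± 0.31 SE, adjusted p = 0.00986) under DOX. The DOX call was lost without the flox/- MEF array, with adjusted p from 8.19e-04 to 0.0556 over 17 settings.

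**Figure D2:**
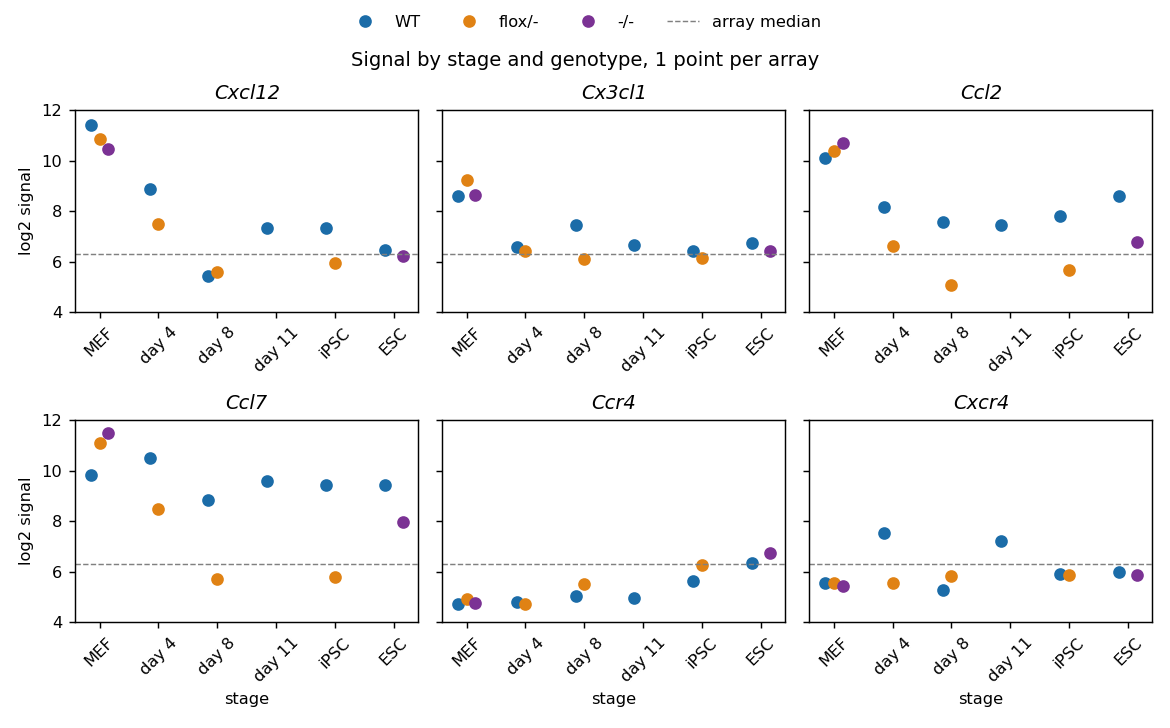
Log2 signal of Cxcl12, Cx3cl1, Ccl2, Ccl7, Ccr4 and Cxcr4 by stage, 1 point per array coloured by genotype, with the array median (6.31) as a dashed line. The MEF points of Cxcl12, Cx3cl1 and Ccl2 lie above all other points, Ccl7 stays above 8 on every WT array, and Ccr4 is at or above 5.62 only in iPSC and ESC.

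Ccl2, Ccl7, Ccl8, Ccl11 and Ccl12 are neighbours in 1 gene cluster on chromosome 11 and were listed together as monocyte and eosinophil attractants. Ccl2, Ccl7, Ccl11 and Ccl12 bind mainly Ccr2 and Ccr3. Of this list, 7 genes were measured, 5 were tested, and 3 fell in pluripotent lines, where 29.9% of all genes fell. Ccl2, the main monocyte attractant, measured 10.08 in WT MEF, 10.37 in flox/- MEF and 10.71 in -/- MEF. Under DOX, Ccl2 measured 8.18 at day 4, 7.57 at day 8 and 7.44 at day 11 in WT cells, and 6.63 at day 4 and 5.07 at day 8 in flox/- cells. Its pluripotent values were lower, 7.82 in WT iPSC, 5.65 in flox/- iPSC, 8.60 in WT ESC and 6.76 in -/- ESC. The groups were apart in both comparisons, and the lowest values were those of flox/- day 8 and flox/- iPSC. Ccl2 fell 9.08-fold (log2 difference -3.18 ± 0.64 SE, adjusted p = 0.00389) in pluripotent lines and 10.7-fold (log2 difference -3.41 ± 0.64 SE, adjusted p = 0.0185) under DOX. The DOX call was lost without any one of the 3 MEF arrays, with adjusted p from 0.00817 to 0.0901 over 17 settings.

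Ccl7, which also attracts monocytes, measured 9.84 in WT MEF, 11.11 in flox/- MEF and 11.51 in -/- MEF. Under DOX, Ccl7 measured 10.50 at day 4, 8.83 at day 8 and 9.58 at day 11 in WT cells, and 8.50 at day 4 and 5.72 at day 8 in flox/- cells. Among pluripotent lines Ccl7 read 9.42 in WT iPSC, 5.78 in flox/- iPSC, 9.42 in WT ESC and 7.96 in -/- ESC. The WT arrays stayed within 8.83 to 10.50 at every stage, the range of WT MEF included, and the flox/- arrays went from 11.11 in MEF to below 6 at day 8 and in iPSC. Ccl7 fell 6.39-fold (log2 difference -2.68 ± 0.91 SE, adjusted p = 0.0353) in pluripotent lines, with no overlap of the groups. This call was lost without the flox/- MEF, the -/- MEF or the -/- ESC array, and without the flox/- iPSC array the difference was -1.89 (adjusted p 0.0283 to 0.108 over 16 settings). Under DOX the difference was -2.19 ± 0.99 (adjusted p = 0.156).

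Ccl8, of the same gene cluster, was below the median on all 3 MEF arrays, with 4.62 in WT MEF, 4.90 in flox/- MEF and 4.66 in -/- MEF. Under DOX, Ccl8 measured 7.23 at day 4, 4.56 at day 8 and 6.03 at day 11 in WT cells, and 4.83 at day 4 and 4.55 at day 8 in flox/- cells. The lines gave 7.87 in WT iPSC, 4.61 in flox/- iPSC, 5.53 in WT ESC and 5.64 in -/- ESC. The 3 highest values were WT iPSC, WT day 4 and WT day 11, and the spread left no call (1.18 ± 0.68 for pluripotent minus MEF, adjusted p = 0.169, and 0.71 ± 0.62 for DOX minus MEF, adjusted p = 0.435). Ccl12, another Ccr2 ligand, measured 6.54 in WT MEF, 5.18 in flox/- MEF and 4.43 in -/- MEF. Under DOX, Ccl12 measured 4.63 at day 4, 4.29 at day 8 and 4.29 at day 11 in WT cells, and 4.39 at day 4 and 4.37 at day 8 in flox/- cells, and the lines gave 4.36 in WT iPSC, 4.16 in flox/- iPSC, 4.10 in WT ESC and 4.09 in -/- ESC. It was above the median in WT MEF only, and most other values lay below the lower quartile of the array (4.68), where the background limits a fold. Ccl12 fell 2.31-fold (log2 difference -1.21 ± 0.44 SE, adjusted p = 0.0452) in pluripotent lines, a call that was lost on leaving out any single array other than -/- MEF (adjusted p 0.00785 to 0.0861 over 15 settings). The difference was -0.63 without the WT MEF array. Ccl11, the eosinophil attractant eotaxin, ranged from 5.48 to 7.06 over the 12 arrays and was not called.

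The macrophage inflammatory ligands Ccl3, Ccl6 and Ccl9 act through Ccr1, as does Ccl5. Of the list, 5 genes were measured, 4 were tested and 3 fell in pluripotent lines (29.9% of all genes fell), namely Ccl3, Ccl9 and Ccl5. Ccl3 measured 10.94 in WT MEF, 9.35 in flox/- MEF and 6.80 in -/- MEF. Under DOX, Ccl3 measured 8.25 at day 4, 4.87 at day 8 and 6.67 at day 11 in WT cells, and 5.38 at day 4 and 4.76 at day 8 in flox/- cells. The lines gave 5.88 in WT iPSC, 5.75 in flox/- iPSC, 4.76 in WT ESC and 6.34 in -/- ESC. A 17.7-fold span separated WT MEF from -/- MEF, wider than the gap between -/- MEF and the pluripotent lines. Ccl3 fell 10.2-fold (log2 difference -3.35 ± 0.89 SE, adjusted p = 0.0136) in pluripotent lines. The difference was -2.39 without the WT MEF array and -4.47 without the -/- MEF array.

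Ccl9 followed a like order on the MEF arrays, with 9.86 in WT MEF, 8.57 in flox/- MEF and 6.39 in -/- MEF. Under DOX, Ccl9 measured 7.78 at day 4, 4.88 at day 8 and 6.09 at day 11 in WT cells, and 5.50 at day 4 and 4.90 at day 8 in flox/- cells. Its pluripotent values were 5.42 in WT iPSC, 4.88 in flox/- iPSC, 5.10 in WT ESC and 5.21 in -/- ESC. All 3 MEF values were above the pluripotent ones, whereas WT day 4 lay between flox/- MEF and -/- MEF. Ccl9 fell 8.70-fold (log2 difference -3.12 ± 0.71 SE, adjusted p = 0.00679) in pluripotent lines, by 2.33 on the log2 scale without WT MEF and by 4.06 without -/- MEF. Ccl6 measured 8.76 in WT MEF, 6.63 in flox/- MEF and 5.63 in -/- MEF. Under DOX, Ccl6 measured 7.36 at day 4, 5.42 at day 8 and 6.39 at day 11 in WT cells, and 5.64 at day 4 and 5.39 at day 8 in flox/- cells, and the lines gave 6.45 in WT iPSC, 5.39 in flox/- iPSC, 5.22 in WT ESC and 5.60 in -/- ESC. The -/- MEF value lay inside the range of the other states, and Ccl6 was not called (-1.34 ± 0.69, adjusted p = 0.131). Ccl5, an attractant of T cells and macrophages, was near the median throughout, at 6.37 in WT MEF, 6.46 in flox/- MEF and 6.50 in -/- MEF. Under DOX, Ccl5 measured 6.86 at day 4, 6.01 at day 8 and 6.08 at day 11 in WT cells, and 6.34 at day 4 and 5.96 at day 8 in flox/- cells, and the lines gave 6.24 in WT iPSC, 6.17 in flox/- iPSC, 6.03 in WT ESC and 5.88 in -/- ESC. Its fall in pluripotent lines was small, 1.29-fold (log2 difference -0.36 ± 0.12 SE, adjusted p = 0.0327), and was lost on leaving out any single array other than WT iPSC (adjusted p 0.0259 to 0.162 over 15 settings).

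**Figure D3:**
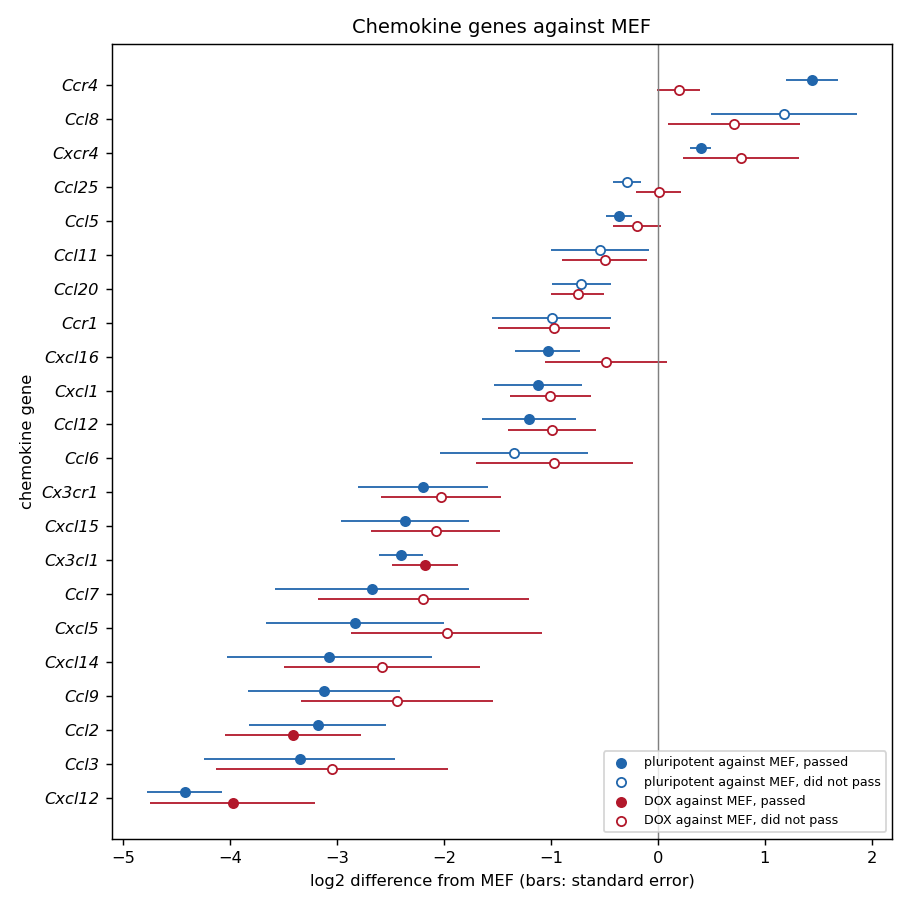
Log2 difference from MEF of the 22 tested chemokine genes, pluripotent lines in blue and DOX-treated cells in red, with bars of 1 standard error of the limma fit, and filled points for an adjusted p under 0.05. The genes run from Cxcl12 (-4.42 and -3.98) to Ccr4 (1.44 and 0.20), and 3 red points are filled, Cxcl12, Ccl2 and Cx3cl1.

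The CXC ligands that carry the ELR motif attract neutrophils through Cxcr2. Of 5 measured, 3 were tested and all 3 fell in pluripotent lines, Cxcl1, Cxcl5 and Cxcl15, where 29.9% of all genes fell. All 3 were below the array median in WT MEF. Cxcl15 passed the filter only through flox/- MEF and Cxcl1 only through flox/- and -/- MEF. The filter thus favoured a fall from MEF for both, and the count cannot be read against the background share. Cxcl5 measured 5.77 in WT MEF, 8.40 in flox/- MEF and 9.73 in -/- MEF. Under DOX, Cxcl5 measured 6.94 at day 4, 5.05 at day 8 and 6.72 at day 11 in WT cells, and 6.40 at day 4 and 4.85 at day 8 in flox/- cells. The lines gave 5.81 in WT iPSC, 4.77 in flox/- iPSC, 5.05 in WT ESC and 4.92 in -/- ESC. WT MEF was no brighter than WT iPSC, so the fall of 7.12-fold (log2 difference -2.83 ± 0.83 SE, adjusted p = 0.0207) rests on the flox/- and -/- MEF arrays. It was lost without either of them (adjusted p 6.78e-04 to 0.0705 over 15 settings), and the difference was -1.95 without -/- MEF and -3.93 without WT MEF.

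Cxcl1 measured 5.97 in WT MEF, 7.62 in flox/- MEF and 7.66 in -/- MEF. Under DOX, Cxcl1 measured 6.25 at day 4, 5.90 at day 8 and 6.16 at day 11 in WT cells, and 6.11 at day 4 and 5.97 at day 8 in flox/- cells. In iPSC and ESC it read 6.07 in WT iPSC, 5.88 in flox/- iPSC, 6.26 in WT ESC and 5.67 in -/- ESC. WT MEF again lay inside the pluripotent range, and the other MEF arrays above all others. Cxcl1 fell 2.17-fold (log2 difference -1.12 ± 0.41 SE, adjusted p = 0.0476) in pluripotent lines, a call lost on leaving out any single array other than WT MEF (adjusted p 6.50e-04 to 0.162 over 15 settings). Cxcl15, known from lung epithelium, measured 5.54 in WT MEF, 8.21 in flox/- MEF and 5.75 in -/- MEF. Under DOX, Cxcl15 measured 5.28 at day 4, 4.11 at day 8 and 4.22 at day 11 in WT cells, and 4.32 at day 4 and 4.18 at day 8 in flox/- cells, and the lines gave 4.13 in WT iPSC, 4.27 in flox/- iPSC, 4.11 in WT ESC and 4.04 in -/- ESC. Only flox/- MEF was above the median. Cxcl15 fell 5.15-fold (log2 difference -2.37 ± 0.60 SE, adjusted p = 0.0107) in pluripotent lines, by 1.51 on the log2 scale without that array, with the pluripotent values below the lower quartile.

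Cxcl14, a chemokine of epithelia and fibroblasts, measured 8.62 in WT MEF, 11.64 in flox/- MEF and 11.93 in -/- MEF. Under DOX, Cxcl14 measured 9.52 at day 4, 7.75 at day 8 and 8.64 at day 11 in WT cells, and 8.50 at day 4 and 6.33 at day 8 in flox/- cells. The lines gave 7.41 in WT iPSC, 6.47 in flox/- iPSC, 9.48 in WT ESC and 7.27 in -/- ESC. The WT ESC value was above WT MEF, and flox/- day 8 and flox/- iPSC were lowest. Cxcl14 fell 8.40-fold (log2 difference -3.07 ± 0.96 SE, adjusted p = 0.0262) in pluripotent lines, a call lost without WT iPSC, flox/- MEF, flox/- iPSC, -/- MEF or -/- ESC (adjusted p 0.00487 to 0.0941 over 16 settings). The difference was -4.13 without WT MEF, -2.47 without -/- MEF and -3.68 without WT ESC. Cxcl16, a transmembrane ligand that also takes up oxidised lipoprotein, measured 7.38 in WT MEF, 7.78 in flox/- MEF and 6.91 in -/- MEF. Under DOX, Cxcl16 measured 6.73 at day 4, 8.68 at day 8 and 6.49 at day 11 in WT cells, and 6.07 at day 4 and 6.39 at day 8 in flox/- cells, and the lines gave 6.15 in WT iPSC, 5.74 in flox/- iPSC, 6.57 in WT ESC and 6.84 in -/- ESC. WT day 8 was the brightest of all 12 arrays. Cxcl16 fell 2.04-fold (log2 difference -1.03 ± 0.30 SE, adjusted p = 0.0206) in pluripotent lines, a call lost without WT MEF or flox/- MEF (adjusted p 0.0123 to 0.134 over 15 settings).

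The homing and barrier ligands, with 7 measured and 2 tested, gave no call. Ccl20, the ligand of Ccr6, ranged from 4.91 to 6.34, highest in -/- MEF, and its difference between pluripotent lines and MEF was -0.71 ± 0.28 (adjusted p = 0.0563). It passed on leaving out WT MEF or WT ESC, or in 1 fit over all 12 arrays (adjusted p 0.00931 to 0.181 over 15 settings). Ccl25, the thymus and gut ligand of Ccr9, ranged from 7.0 to 7.89, above the median on every array. The Cxcr3 ligands Cxcl9, Cxcl10 and Cxcl11, which interferon induces, were not above the median on any array. RefSeq lists the mouse Cxcl11 gene as a transcribed pseudogene.

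Of the 17 receptors, 4 passed the filter. Cx3cr1, the receptor of Cx3cl1 and a macrophage and microglia marker, measured 9.66 in WT MEF, 8.43 in flox/- MEF and 6.70 in -/- MEF. Under DOX, Cx3cr1 measured 6.30 at day 4, 6.45 at day 8 and 5.93 at day 11 in WT cells, and 6.35 at day 4 and 6.13 at day 8 in flox/- cells. The lines gave 5.89 in WT iPSC, 6.17 in flox/- iPSC, 6.38 in WT ESC and 5.82 in -/- ESC. The MEF arrays were above all others, -/- MEF by the smallest margin. Cx3cr1 fell 4.59-fold (log2 difference -2.20 ± 0.61 SE, adjusted p = 0.016) in pluripotent lines. The call was lost without flox/- MEF (adjusted p 9.02e-04 to 0.0537 over 15 settings), and the difference was -1.50 without WT MEF and -2.98 without -/- MEF. Under DOX its difference of -2.03 ± 0.56 narrowly missed the threshold (adjusted p = 0.0505); it passed without -/- MEF, with genotype as a block and under 2 other settings, with adjusted p from 0.0135 to 0.171 over 16 settings.

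Ccr1, the receptor of the Ccl3 group, measured 6.61 in WT MEF, 4.36 in flox/- MEF and 4.07 in -/- MEF. Under DOX, Ccr1 measured 4.23 at day 4, 4.03 at day 8 and 4.02 at day 11 in WT cells, and 3.96 at day 4 and 3.97 at day 8 in flox/- cells, and the lines gave 4.01 in WT iPSC, 4.01 in flox/- iPSC, 4.08 in WT ESC and 4.00 in -/- ESC. It was above the median on the WT MEF array alone and was not called (-0.99 ± 0.56 for pluripotent minus MEF, adjusted p = 0.16).

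Ccr4, a receptor known from T helper and regulatory T cells, was the one chemokine gene whose pluripotent values all lay above the rest. Ccr4 measured 4.73 in WT MEF, 4.92 in flox/- MEF and 4.76 in -/- MEF. Under DOX, Ccr4 measured 4.78 at day 4, 5.02 at day 8 and 4.96 at day 11 in WT cells, and 4.72 at day 4 and 5.52 at day 8 in flox/- cells. The lines gave 5.62 in WT iPSC, 6.25 in flox/- iPSC, 6.35 in WT ESC and 6.75 in -/- ESC, each above all 8 other arrays. Ccr4 rose 2.72-fold (log2 difference 1.44 ± 0.25 SE, adjusted p = 0.00183) from MEF to pluripotent lines, called in each of the 15 settings that tested it. Only -/- ESC and WT ESC were above the array median. Ccr4 passed the filter through these arrays alone, so its call, in whichever setting, is not independent of its being high there. Against DOX-treated cells it was 2.37-fold higher in the pluripotent lines (log2 difference -1.25 ± 0.25 for DOX minus pluripotent, adjusted p = 0.206), and it passed without the flox/- day 8 array, where 1315 of all genes did (adjusted p 0.0146 to 0.467 over 17 settings).

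Cxcr4, the receptor of Cxcl12, measured 5.53 in WT MEF, 5.55 in flox/- MEF and 5.43 in -/- MEF. Under DOX, Cxcr4 measured 7.54 at day 4, 5.29 at day 8 and 7.20 at day 11 in WT cells, and 5.53 at day 4 and 5.84 at day 8 in flox/- cells. The lines gave 5.92 in WT iPSC, 5.86 in flox/- iPSC, 5.97 in WT ESC and 5.86 in -/- ESC. The clear highs were WT day 4 and WT day 11, which flox/- day 4 and WT day 8 did not share. Cxcr4 passed the filter only through these highs, and every MEF and pluripotent value was below the array median. The tight groups gave a small rise of 1.32-fold (log2 difference 0.40 ± 0.10 SE, adjusted p = 0.00872) in pluripotent lines, lost in 1 fit over all 12 arrays (adjusted p 0.00320 to 0.515 over 15 settings). The DOX difference from MEF was 0.78 ± 0.54 (adjusted p = 0.332).

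Between DOX-treated and pluripotent cells, 0 of the 22 chemokine genes were called by limma (background 0.00767%, 1 of 13044 genes). At an unadjusted p under 0.05 there were 2052 genes, of which 1 was a chemokine gene, Ccr4. The median log2 difference was 0.26 over the chemokine genes and 0.02 over all genes, and a missed threshold does not show that the states were alike.

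The 28 chemokine genes that did not pass the filter read between 3.80 and 6.21, and 26 of them stayed within 1 log2 unit over all 12 arrays. They were the ligands Ccl1, Ccl4, Ccl17, Ccl19, Ccl22, Ccl24, Ccl26, Ccl28, Cxcl2, Cxcl3, Cxcl9, Cxcl10, Cxcl11, Cxcl13 and Cxcl17, and the receptors Ccr1l1, Ccr2, Ccr3, Ccr6, Ccr7, Ccr8, Ccr9, Ccr10, Cxcr1, Cxcr2, Cxcr3, Cxcr5 and Cxcr6. Ccr2 and Cxcr2, the main receptors of the Ccl2 and ELR groups, were thus below the median on all 12 arrays. The widest span was that of Cxcr6, the receptor of Cxcl16, 3.33-fold, with 6.07 in -/- MEF.

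The 3 MEF arrays differed from each other in the chemokine genes they held. Against WT MEF, 6 of the 22 genes were 2-fold or more lower in flox/- MEF and 6 in -/- MEF, the same Ccl3, Ccl6, Ccl9, Ccl12, Ccr1 and Cx3cr1 (background 1.79% and 3.96% of all genes). In the other direction, Ccl7, Ccl11, Cxcl1, Cxcl5, Cxcl14 and Cxcl15 were 2-fold or more higher in flox/- MEF, and Ccl7, Ccl11, Ccl20, Cxcl1, Cxcl5 and Cxcl14 in -/- MEF (background 2.33% and 3.06%). Both sets of differences share the WT MEF array. Between -/- and flox/- MEF, Cxcl5 was 2-fold or more higher (0.682%) and Ccl3, Ccl6, Ccl9, Cx3cr1 and Cxcl15 lower (1.84%). Ccl12 and Ccr1 passed the filter only through WT MEF, Cxcl15 only through flox/- MEF and Ccl20 only through -/- MEF. Cxcl1 passed only through the flox/- and -/- MEF arrays. For these genes the filter itself favoured a difference among the MEF arrays, so the counts cannot be read against the background shares. There is 1 array per genotype, so no test was possible, and genotype and culture cannot be told apart.

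Blood cell markers ran in the same order as the first set. Their mean over 21 genes was 8.29, 7.70 and 6.25 in WT, flox/- and -/- MEF, and their summed linear signal was 21297, 12413 and 2775. Csf1r and Adgre1, which define macrophages, read 9.59 and 9.33 in WT MEF, 8.98 and 8.47 in flox/- MEF and 6.48 and 6.80 in -/- MEF, and 4 of the 21 were at or below the lower quartile on each. Cx3cr1 and Ccr1 are themselves known from macrophages. The mean of the 13 fibroblast markers differed by far less, at 11.37, 11.65 and 11.55. The part of blood cells in the chemokine differences was not tested.

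**Figure D4:**
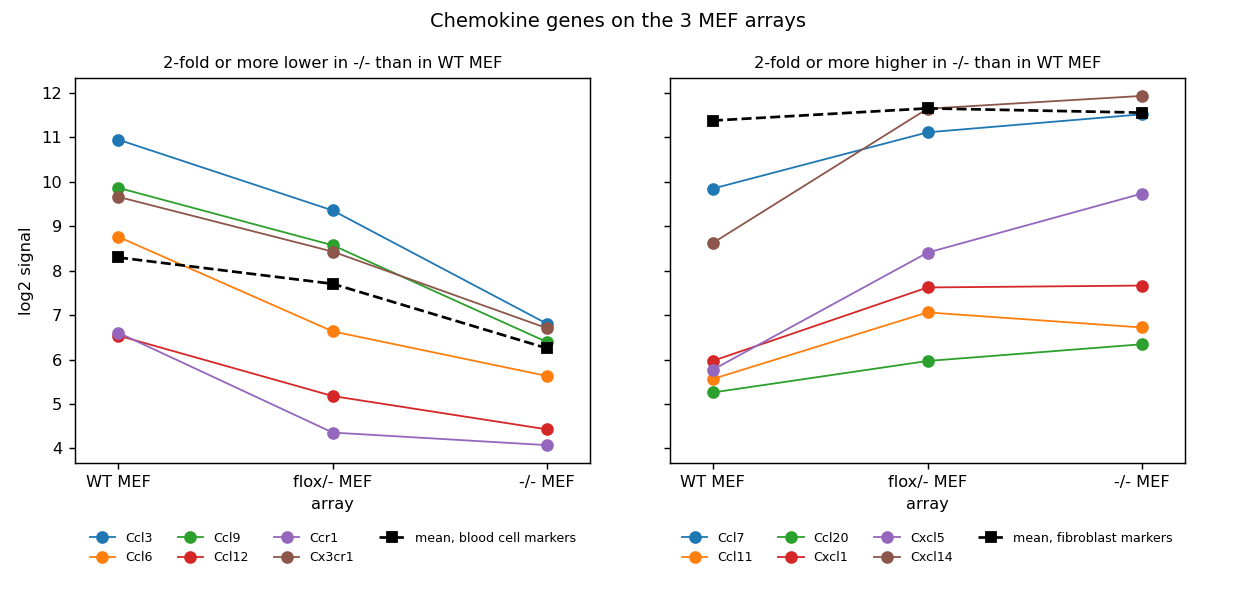
Log2 signal on the 3 MEF arrays of the 6 chemokine genes that were 2-fold or more lower (left) and the 6 that were 2-fold or more higher (right) in -/- than in WT MEF, with the mean of 21 blood cell markers (left) or 13 fibroblast markers (right) as black squares, and lines joining values of 1 gene. On the left every gene and the blood cell mean (8.29, 7.70 and 6.25) are highest in WT MEF, and on the right the fibroblast mean stays within 11.37 to 11.65.

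After the first 4 days of DOX, more chemokine genes were lower than higher in both genotypes. From WT MEF to WT day 4, 9 of the 22 genes were 2-fold or more lower (6.94% of all genes) and 3 higher, Ccl8, Cxcl5 and Cxcr4 (5.45%). From flox/- MEF to flox/- day 4, 13 were lower (15.1%) and 0 higher (13.5%). Of these genes, Ccl12 and Ccr1, lower in WT, and Cxcl1 and Cxcl15, lower in flox/- cells, passed the filter only through MEF arrays. Ccl8 and Cxcr4, higher at WT day 4, passed only through WT DOX or WT iPSC arrays. Between days 4 and 8, 10 were lower and 1, Cxcl16, higher in WT (9.80% and 10.6%), and 5 lower and 0 higher in flox/- cells (11.8% and 7.44%). WT day 11 against WT day 4 gave 5 lower and 0 higher (5.67% and 5.68%). From WT day 11 to WT iPSC, Cxcl14 and Cxcr4 were lower and Ccl8 higher (5.92% and 3.20%), and from flox/- day 8 to flox/- iPSC 0 of 22 were 2-fold apart in either direction (0.866% lower, 1.82% higher). Each of these compares a pair of single arrays without a test, and the WT day 8 array is from the earlier series.

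At matched stages after MEF, chemokine genes that were 2-fold apart were all lower in flox/- than in WT cells. At day 4, 9 of the 22 genes were 2-fold or more lower in flox/- cells (8.04% of all genes) and 0 higher (4.82%), namely Ccl2, Ccl3, Ccl6, Ccl7, Ccl8, Ccl9, Cxcl12, Cxcl14 and Cxcr4. At day 8, 5 were lower, Ccl2, Ccl7, Cx3cl1, Cxcl14 and Cxcl16, which is a share near the background (18.7%), and 0 higher (13.1%). The WT day 8 array came from the earlier series. Its pluripotency marker mean was 6.40, against 11.94 at flox/- day 8. In this pair, genotype, source and state cannot be told apart. In iPSC, 7 were lower (3.20%) and 0 higher (1.88%), namely Ccl2, Ccl6, Ccl7, Ccl8, Ccl11, Cxcl5 and Cxcl12. Ccl2 and Ccl7 were in each of these 3 lists. Ccl8 passed the filter only through WT day 4 and WT iPSC, and Cxcr4 only through WT day 4 and WT day 11. Against WT day 11, flox/- day 8 was 2-fold or more lower for 10 genes (10.3%) and higher for 0 (4.08%). The fibroblast marker mean was lower on the same flox/- arrays, 8.89 against 10.70 at day 4, 6.18 against 8.19 at day 8 and 6.33 against 9.03 in iPSC, and the growth conditions include fibroblast feeders. The blood cell marker mean was also lower at day 4, 5.92 against 7.34 (summed linear signal 2553 against 10808), and in iPSC, 5.73 against 6.45, but not at day 8, 5.68 against 5.47. At day 4, when Ccl3, Ccl6 and Ccl9 were among the lower genes, Csf1r read 5.82 in flox/- and 7.79 in WT cells, Adgre1 5.20 and 8.18, and the complement gene C1qb 6.85 and 10.74. The part of fibroblasts, feeder cells or blood cells in the chemokine differences was not tested.

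Over the 4 stages that both genotypes share, with stage as a block, limma called 0 of the 22 chemokine genes between flox/- and WT (0% of all genes). Of all genes 852 had an unadjusted p under 0.05, 2 of them chemokine genes. These were Ccl6 (-1.23 ± 0.38, adjusted p = 0.693) and Ccl2 (-1.48 ± 0.50, adjusted p = 0.693), as log2 differences of flox/- minus WT. For Ccl2 the MEF difference was 0.29 and the others were between -2.50 and -1.55. The sign was negative for 16 of the 22 genes, and the median was -0.34 against 0.02 over all genes.

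**Figure D5:**
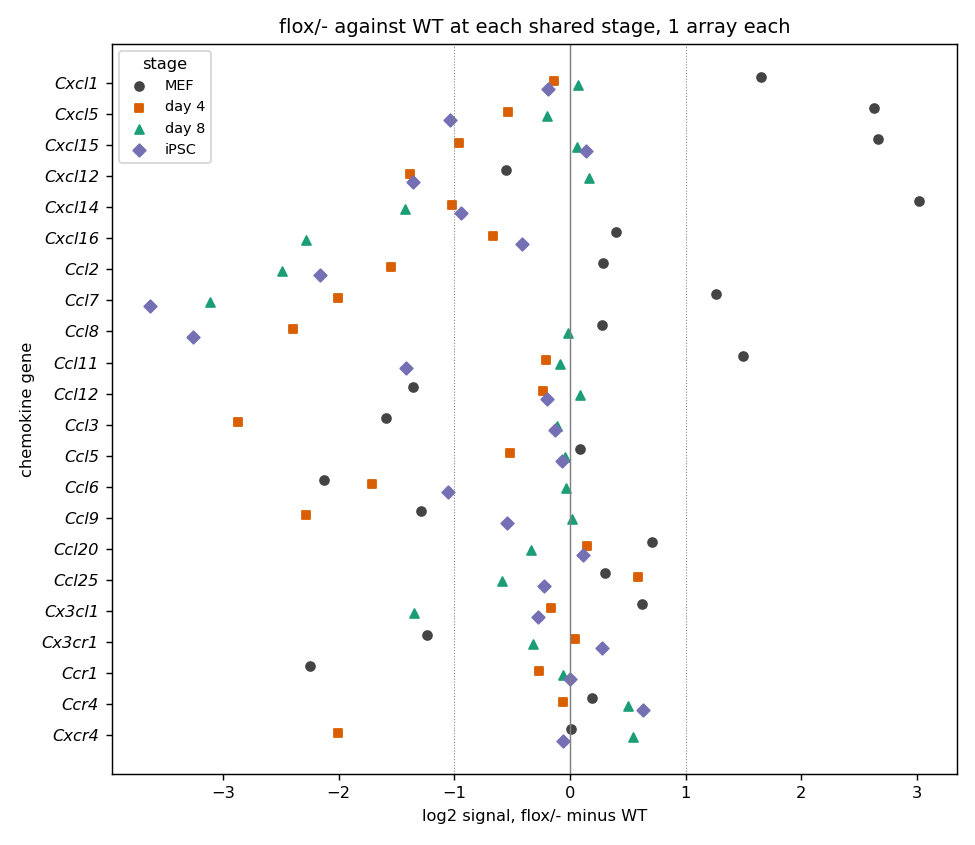
Log2 difference of flox/- minus WT for the 22 tested chemokine genes at MEF (circles), day 4 (squares), day 8 (triangles) and iPSC (diamonds), each from 1 array per genotype, with dotted lines at a 2-fold difference. Points left of the lower dotted line at day 4, day 8 and iPSC number 9, 5 and 7, and none at these stages lie right of the upper one, where 6 MEF points lie.

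Between -/- and WT cells, over the 7 arrays without DOX, 0 of the 22 chemokine genes were called (0% of all genes). There were 907 genes at an unadjusted p under 0.05 and 0 chemokine genes among them. Cx3cr1 had the lowest p, with a log2 difference of -1.64 ± 0.62 (adjusted p = 0.686). In ESC alone, Ccl2, Ccl7 and Cxcl14 were 2-fold or more lower in -/- than in WT cells (6.06% of all genes) and Ccl3 was higher (3.88%). The WT ESC array came from the earlier series, so for these 2 arrays genotype and source cannot be told apart.

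Genes that act with chemokines were counted as whole lists. Of 16 tested genes of chemokine receptor signalling, 11 fell and 0 rose in pluripotent lines and 1 fell under DOX. The largest falls were those of Jak2, a cytokine receptor kinase (6.82-fold), the G protein regulators Rgs2 (5.89-fold) and Rgs16 (3.88-fold), and Pik3cg, the lipid kinase downstream of G proteins (3.67-fold), which also fell under DOX (3.31-fold). Of 18 tested regulators of NF-kB and inflammation, 14 fell and 0 rose in pluripotent lines, led by Tlr4, the endotoxin receptor (7.98-fold), Ptgs2, the inducible prostaglandin synthase (7.62-fold), the macrophage growth factor Csf1 (7.09-fold) and the cytokine Il6 (5.64-fold), and 2 fell under DOX, Csf1 and Tnf. Il6 read 4.40, 6.14 and 8.77 in WT, flox/- and -/- MEF.

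Among 7 tested proteins that cut or shed chemokines, 6 fell and 1 rose in pluripotent lines. Dpp4, the peptidase that clips the first residues of Cxcl12, rose 7.72-fold (log2 difference 2.95 ± 0.70 SE, adjusted p = 0.00798). It read 9.88 to 10.15 in both iPSC lines and -/- ESC, but 7.28 in WT ESC. That was near WT MEF (6.94) and below WT day 4 (7.97). The 6 that fell included the metalloproteinases Mmp14 (7.17-fold lower) and Mmp2 (5.73-fold lower), and carboxypeptidase D, Cpd (3.88-fold lower, and 2.82-fold lower under DOX). They also included Adam10 and Adam17, which shed Cx3cl1 and Cxcl16. The last was Mmp9, which passed the filter only through -/- MEF (6.58). Of 9 tested interferon regulators, 5 fell in pluripotent lines, led by Ifngr1 (8.46-fold), and 1 under DOX. For these lists too, 29.9% of all genes fell in pluripotent lines and 7.67% under DOX.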

How the data were processed

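The values deposited by the authors are log2 signals of 35512 probe sets on 12 arrays, from 3.11 to 13.99. Summary and normalization methods are not given in the sources used here. Deposited array medians differed by 0.122, above the 0.1 set for it, so values were quantile normalized. Of 23410 annotated probe sets, 21789 had 1 symbol and 1621 several, and the latter were not used. Genes above the array median on at least 1 array (13044 of 19938) were tested with limma 3.58.1 in R 4.3.3 (files were read with the package data.table, version 1.17.8), with Benjamini-Hochberg adjustment over them and a threshold of 0.05. Errors are standard errors of the fit. Fits used only the arrays of their comparison, with stage as a block for flox/- against WT, and stage and genotype as terms for -/- against WT. Arrays have no sequencing depth, and their number limits the precision. The fit was tested on simulated data. No array columns were identical (highest correlation 0.991).

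The chemokine genes, gene lists and tests were chosen with earlier results of these data known. All tested chemokine genes are named. Values on all 12 arrays are given for those called in a comparison or with a 4-fold range, and other genes are the called list members with the largest folds, at most 4 a list, or ones a result turns on. Alternatives were normalization, filter, probe sets, variance model, arrays, genotype as a block and leaving out each array. One of these, deposited values for single stages, was chosen after seeing the data. The array annotation named the genes, and Entrez identifiers linked all 50 to RefSeq.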

Additional observations from a re-analysis of the deposited data

Results flagged for a closer look

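In 44 sets of 4 or 5 arrays of 1 state (22 genes, DOX-treated and pluripotent), 5 had a sample far from the others. For true replicates chance gives about 1 in 20. The arrays of a state differ in genotype and in day or line, so that rate does not apply to them. Ccl11 was 6.90 in WT iPSC, against 5.48 to 5.71 in the other pluripotent lines. Cxcl16 was 8.68 at WT day 8, against 6.07 to 6.73 on the other DOX arrays. Cxcl15 was 5.28 at WT day 4, against 4.11 to 4.32 on the others. Ccr1 was 4.23 at WT day 4, against 3.96 to 4.03, and 4.08 in WT ESC, against 4.00 to 4.01, all of them below the lower quartile of the arrays. The WT day 8 array is from the earlier series and also differed from the later DOX arrays in its pluripotency markers.

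For Ccl11 the change from MEF to DOX had opposite signs in the genotypes. It was 0.05 to 1.16 higher on the log2 scale at the 3 WT times and -1.54 to -1.22 at both flox/- times, a difference of 1.94 between the genotype means. The difference was not tested, and all values of a genotype share 1 MEF array.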

How the results depend on the processing

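The call counts over the 22 tested chemokine genes kept their size in most settings. Between pluripotent lines and MEF, 16 genes were called, and 12 to 18 in 7 of the 8 other planned settings. The exception was a filter on the mean signal, which left 6 genes to test and 5 calls. Leaving out each array gave 8 to 15, with 8 without the flox/- MEF array, against 6449 to 7762 of all genes (7827 with every array). Ccl2, Ccl3, Ccl9, Ccr4, Cx3cl1, Cxcl12 and Cxcl15 were called in every setting that tested them. Fits that left out an array kept the filter over all 12 arrays. Cxcl15 passed that filter only through flox/- MEF and Ccr4 only through the ESC arrays, so their tests were not independent of it. Between DOX and MEF, 3 were called, 9 in 1 fit over all 12 arrays, where the cause was not tested, and 0 to 6 on leaving out each array, with 0 without flox/- MEF and 6 without WT day 4, while the calls over all genes ran from 150 to 3165 (1768 with every array). Between DOX and pluripotent cells, leaving out each array gave 0 to 1 (Ccr4, without flox/- day 8, where 1315 of all genes were called). For flox/- against WT, leaving out each stage gave 0 to 0, and -/- against WT gave 0 in every setting. Single genes gave 376 values on the same side of the threshold, 54 no longer past it, 19 newly past it and 0 reversed. Deposited values moved no tested chemokine value by more than 0.073 and no 2-fold count. No paired analysis was possible because the labels give no replicate numbers; genotype as a block gave 12 calls for pluripotent lines, 3 for DOX and 0 between them. Dim probe sets near 4 to 5 limit folds.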

Other observations

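Chemokine genes outside the naming rule were a list of 15 measured and 7 tested. In pluripotent lines 4 were called lower and 1 higher, against 29.9% and 30.1% of all genes. Under DOX 4 were called lower and 0 higher, against 7.67% and 5.88% of all genes. Ppbp, the neutrophil attractant of platelets, read 7.24 in WT MEF, 8.32 in flox/- MEF and 10.96 in -/- MEF, between 4.83 and 5.76 under DOX, and 7.90 in WT ESC against 4.72 to 4.94 in the other lines. It fell 9.61-fold (log2 difference -3.26 ± 1.07 SE, adjusted p = 0.0318) in pluripotent lines and 11.8-fold (log2 difference -3.56 ± 0.73 SE, adjusted p = 0.0244) under DOX. Pf4, its neighbour and also a platelet chemokine, went the other way over the MEF arrays, with 8.79, 6.32 and 6.05 in WT, flox/- and -/- MEF, and was between 4.56 and 5.40 on the other 9. It fell 4.98-fold (log2 difference -2.32 ± 0.61 SE, adjusted p = 0.0128) and 4.43-fold (log2 difference -2.15 ± 0.58 SE, adjusted p = 0.0478) in those comparisons. Pf4 passed the filter only through WT and flox/- MEF, so its falls are not independent of the filter.

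Ackr3, the decoy receptor that takes up Cxcl12, read 7.55, 7.05 and 6.69 in WT, flox/- and -/- MEF and 5.21 to 6.06 in pluripotent lines. It was 7.95 at WT day 8, above all other arrays, and 4.90 at flox/- day 8. Ackr3 fell 2.91-fold (log2 difference -1.54 ± 0.28 SE, adjusted p = 0.00222) in pluripotent lines, while its difference under DOX was -0.81 ± 0.60 (adjusted p = 0.359). At WT day 8, where Cxcl12 was lowest (5.42), Ackr3 and the transmembrane ligand Cxcl16 were at their highest of the 12 arrays. Cmtm3, a chemokine-like factor family member, fell 3.33-fold in pluripotent lines and 2.40-fold under DOX, and Cmklr1, the chemerin receptor, fell 2.41-fold under DOX and differed by -0.15 ± 0.27 in pluripotent lines (adjusted p = 0.654).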
